A study of Mus musculus with 4 samples.

Results

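The adhesion receptors that endothelial cells present to leukocytes were followed through 8 genes: the selectins Selp and Sele, the immunoglobulin superfamily members Icam1, Icam2, Vcam1 and Madcam1, and the sialomucins Cd34 and Podxl. The arrays carried 12 probe sets that the platform annotation assigned to one of these genes alone, of 22626 probe sets for 12393 named genes, and every one was kept. Selp was chosen by its higher signal in the comparison described here, and the other genes were grouped with it by function while results of the same arrays were known. Their changes between the groups are therefore given as a description, without a test.

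The arrays measured Py-4-1, a mouse hemangioendothelioma line, that is, cells of a vascular tumour of endothelial origin. In the labels, 2 clones had been stably transfected with pcDNA/Prox1, a plasmid for the homeobox factor Prox1 of lymphatic endothelium, and 2 control clones with pcDNA. Each clone was read on 1 array, so that differences between clones, cultures and arrays within a group cannot be told apart. Values are MAS5 intensities, the Affymetrix summary of the probes of a probe set on a linear scale.

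Prox1 itself did not separate the groups. Its probe set (1421336_at) read 62.4 and 44.3 in pcDNA/Prox1 clones 1 and 2, against 52.1 and 60.5 in pcDNA clones 1 and 2. Each array carried 27 controls for Bacillus genes, which no mouse transcript should bind. Prox1 exceeded the brightest of its array's controls on 1 array, that of pcDNA clone 1. There the brightest control read 45.3, against 88.4 to 101 on the other arrays. Whether this probe set covers the transfected sequence is not given in the sources used here. The groups are called Prox1-labelled and pcDNA below, and every direction rests on those labels.

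Leukocytes leave the blood in steps. Selectins on the endothelium catch passing cells by binding sialylated, fucosylated sugars on their surface mucins, and members of the immunoglobulin superfamily then bind leukocyte integrins and hold the cells firmly. P-selectin is stored in Weibel-Palade bodies, the secretory granules of endothelium, and in platelet granules, from which it reaches the surface quickly. E-selectin, ICAM-1 and VCAM-1 depend largely on new transcription after cytokines act through NF-kappaB. The storage of P-selectin concerns the protein and says nothing of how the Selp transcript is controlled. The sialomucins CD34 and podocalyxin coat the luminal surface of endothelial cells.

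Selp, the gene of P-selectin, was higher in both Prox1-labelled clones by both of its probe sets. The probe set 1420558_at read 3918 and 3841 in Prox1-labelled clones 1 and 2, against 754 and 1138 in pcDNA clones 1 and 2. The second one, 1449906_at, read 3979.5 and 4013 in the Prox1-labelled clones, against 497 and 1026 in the pcDNA clones. On either probe set both Prox1-labelled clones stood far above both pcDNA clones, and pcDNA clone 1 was the lowest of the 4.

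The size of the difference depended somewhat on the probe set. Means on 1420558_at were 3879.6 ± 54.7 in Prox1-labelled clones and 946 ± 271 in pcDNA clones (SD, n = 2 each), a ratio of 4.10. On 1449906_at they were 3996 ± 24.0 in Prox1-labelled clones and 762 ± 375 in pcDNA clones, a ratio of 5.25. The lower Prox1-labelled clone still read 3.38 times the higher pcDNA clone on 1420558_at and 3.88 times on 1449906_at. As differences of log2(intensity + 47), with 47, the lower quartile of the deposited values, added to dampen changes of dim probe sets, these were 2.01 ± 0.22 and 2.40 ± 0.29 (SE of the limma fit over all probe sets).

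The clones of a group did not agree equally well on Selp. The Prox1-labelled clones differed by 0.03 (clone 1 minus clone 2, log2 scale) on 1420558_at and by -0.01 on 1449906_at. The pcDNA clones differed by 0.56 and 0.98 (clone 2 minus clone 1), where the median size of that difference over the 11656 probe sets past the intensity filter was 0.26 and its 90th percentile 0.68. Leaving out pcDNA clone 1 gave Selp changes of 1.73 and 1.91, and leaving out pcDNA clone 2 gave 2.29 and 2.89. An array reads the pooled RNA of a culture, so that more cells with the transcript and more transcript per cell cannot be told apart.

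Sele encodes E-selectin, which binds related sugars and is made mainly on cytokine activation. Its probe set (1421712_at) read 302 and 262 in the Prox1-labelled clones, against 221 and 221 in the pcDNA clones. Both Prox1-labelled clones were above both pcDNA clones by a small margin, the lower of them at 1.18 times the higher pcDNA clone. The log2 change was 0.29 ± 0.21, with a difference of 0.18 between the Prox1-labelled clones.

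Sele and Selp lie close to each other on mouse chromosome 1 in the RefSeq table of GRCm38.p6. The coagulation factor gene F5 follows Selp there. F5 was dim on all 4 arrays, with 36.3 and 24.7 in the Prox1-labelled clones against 43.3 and 28.6 in the pcDNA clones on 1418907_at, below the highest Bacillus control on each array, so that no difference is drawn from it. On the far side of Sele, the methyltransferase-like gene Mettl18 read 279 and 247 in the Prox1-labelled clones against 247 and 223 in the pcDNA clones (log2 change 0.13 ± 0.21, limma adjusted p = 0.820). Mettl18 and F5 were named after their values were seen.

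The promoters of Selp and Sele are shown because the transcripts of these nearby genes differed so unequally between the groups. Both run from 250 bases before to 50 bases after the annotated start on the plus strand (RefSeq, GRCm38.p6), at chr1:164115014-164115313 for Selp and chr1:164047984-164048283 for Sele. Capitals mark matches on either strand to GGGAA, a half-site of NF-kappaB, and to the TATA motif TATAAA.
Selp: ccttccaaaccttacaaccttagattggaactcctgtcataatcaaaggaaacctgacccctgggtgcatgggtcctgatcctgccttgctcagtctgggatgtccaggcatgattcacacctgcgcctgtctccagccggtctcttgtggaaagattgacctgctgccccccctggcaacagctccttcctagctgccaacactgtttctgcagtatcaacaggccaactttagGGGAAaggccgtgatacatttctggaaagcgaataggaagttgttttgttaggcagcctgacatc
Sele: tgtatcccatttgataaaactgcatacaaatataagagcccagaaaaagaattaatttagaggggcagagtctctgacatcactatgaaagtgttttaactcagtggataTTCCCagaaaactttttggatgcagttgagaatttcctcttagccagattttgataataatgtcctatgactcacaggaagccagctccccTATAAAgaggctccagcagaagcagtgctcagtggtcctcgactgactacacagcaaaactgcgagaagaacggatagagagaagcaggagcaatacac

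Positions are given for the leftmost base of a match, with the start counted as 1. The Sele promoter held TATAAA at -49 and 1 GGGAA, read on the minus strand at -140. The Selp promoter held no TATAAA in this window, and its 1 GGGAA lay at -15 on the plus strand. Of 32851 promoters in the table, 13.6% held TATAAA and 62.7% held GGGAA. The core GGAA of Ets factor sites, which lies within every GGGAA, occurred 8 times in the Selp window on both strands together, against 3 times in the Sele window, and 96% of all promoters held at least 1. GATA, the core of GATA factor sites, occurred 2 times in Selp and 5 times in Sele, and in 57.9% of promoters. The AP-1 motif TGACTCA was found in the Sele window at -73 and not in the Selp window, with 5.2% of promoters holding it. The STAT motif TTCNNNGAA was found in the Sele window, where it overlaps the GGGAA at -140, and not in the Selp window, with 8.3% of promoters holding it. Letters that match a motif are a description of the sequence and say nothing of binding. The table held promoters for 5 of the 8 genes. Among the other 3, Icam1 held TATAAA at 14, after the annotated start and not before it as in Sele, while Cd34 and Madcam1 held none. GGGAA occurred 2 times in Icam1, 7 times in Madcam1 and 0 times in Cd34.

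**Figure D1:**
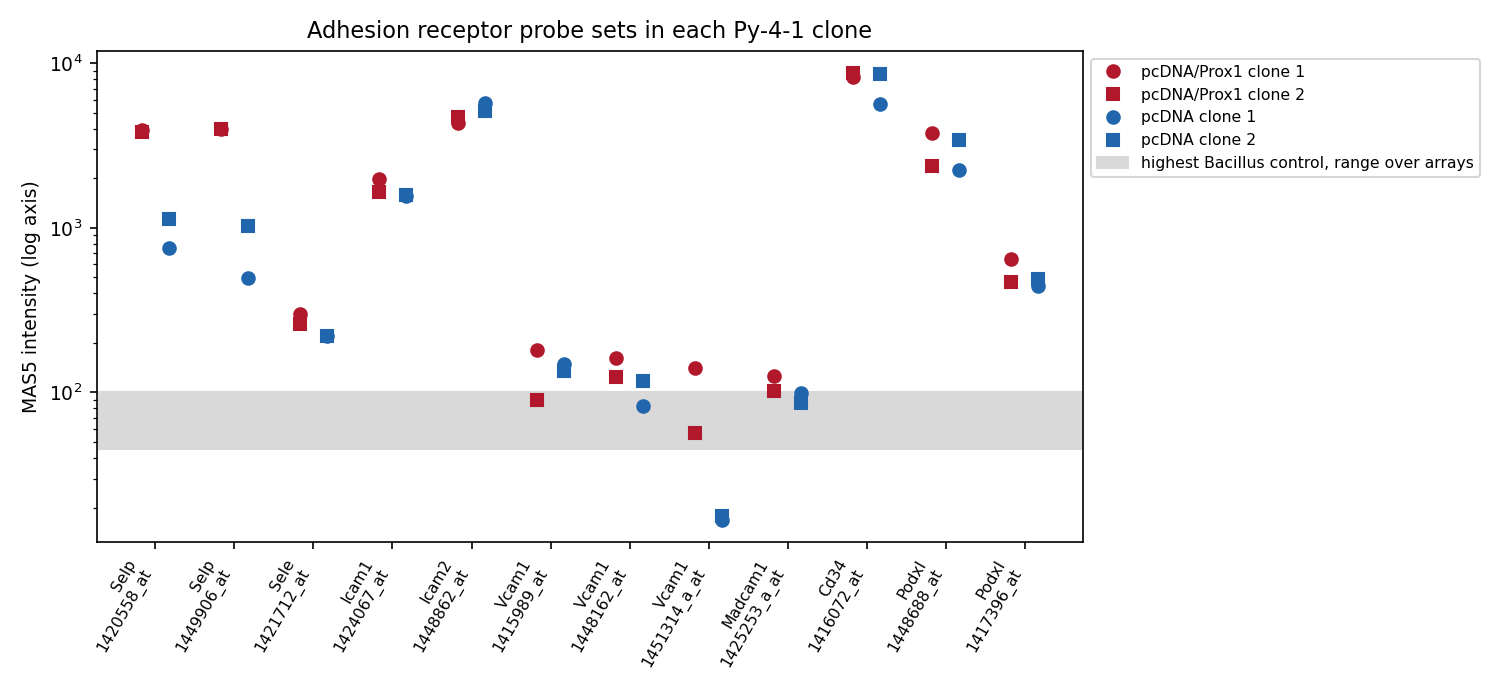
MAS5 intensity (log axis) of the 12 probe sets in each clone, Prox1-labelled clones in red left of pcDNA clones in blue, circles for clone 1 and squares for clone 2. The grey band spans the highest Bacillus control signal of the 4 arrays, 45.3 to 101. Selp lay between 3841 and 4013 in the Prox1-labelled clones and between 497 and 1138 in the pcDNA clones, while Vcam1 and Madcam1 had readings within or under the band.

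Among the integrin ligands, Icam1 and Icam2 had small and opposite differences. Icam1 binds the integrins LFA-1 and Mac-1 and is raised by cytokines. Its probe set (1424067_at) read 1992 and 1651 in the Prox1-labelled clones, against 1559 and 1589.6 in the pcDNA clones. The groups did not overlap, but Prox1-labelled clone 2 lay only 1.04 times above the higher pcDNA clone. The log2 change of Icam1 was 0.20 ± 0.19, and it was 0.07 without Prox1-labelled clone 1.

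Icam2 is a constitutive endothelial ligand of LFA-1. Its probe set (1448862_at) read 4323 and 4726 in the Prox1-labelled clones, against 5716 and 5136 in the pcDNA clones. It was the 1 probe set of the 12 on which both Prox1-labelled clones lay below both pcDNA clones. Means were 4524 ± 285 in Prox1-labelled clones and 5426 ± 410.4 in pcDNA clones (SD, n = 2 each), and the log2 change was -0.26 ± 0.17. Leaving out a clone kept it between -0.34 and -0.18.

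Vcam1, the ligand of the integrin alpha-4 beta-1, was dim and its 3 probe sets disagreed. On 1415989_at it read 181 and 89.6 in the Prox1-labelled clones, against 149 and 134 in the pcDNA clones. On 1448162_at it read 162 and 123 in the Prox1-labelled clones, against 82.3 and 117 in the pcDNA clones. On 1451314_a_at it read 140.4 and 56.5 in the Prox1-labelled clones, against 16.8 and 17.9 in the pcDNA clones. The groups overlapped on the first of these, while both Prox1-labelled clones were higher on the others.

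Log2 changes of Vcam1 were -0.09 ± 0.31 on 1415989_at and 0.38 ± 0.25 on 1448162_at, and none of its probe sets passed the intensity filter. On 1451314_a_at only Prox1-labelled clone 1 exceeded the highest Bacillus control of its array, so its difference depended on the added constant, at 1.11 with 47, 2.36 with none and 0.49 with 173, and no fold or error is given for it. The change on 1415989_at turned to 0.28 without Prox1-labelled clone 2 and stood at -0.46 without Prox1-labelled clone 1. The direction for Vcam1 was not settled by these arrays.

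Madcam1, the addressin that binds the integrin alpha-4 beta-7 in gut venules, was also near background. Its probe set (1425253_a_at) read 127 and 102 in the Prox1-labelled clones, against 98.7 and 86.7 in the pcDNA clones. It lay above the highest Bacillus control on 3 arrays and below it in pcDNA clone 2. The groups did not overlap, the log2 change was 0.20 ± 0.23, and the probe set did not pass the filter.

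The sialomucins lay far above the Bacillus controls, and the groups overlapped on all 3 of their probe sets. Cd34 (1416072_at) read 8263 and 8713 in the Prox1-labelled clones, against 5672 and 8567 in the pcDNA clones. Only pcDNA clone 1 stood apart, below the other 3. The log2 change was 0.28 ± 0.21, and it was -0.01 without pcDNA clone 1 and 0.58 without pcDNA clone 2.

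Podxl, the gene of podocalyxin, was read by 2 probe sets. The brighter one (1448688_at) read 3760.2 and 2369.8 in the Prox1-labelled clones, against 2244 and 3408 in the pcDNA clones. One clone of each group was high and one was low, with log2 differences of 0.66 between the Prox1-labelled and 0.59 between the pcDNA clones, against a group change of 0.11 ± 0.27. The dimmer one (1417396_at) read 651 and 469 in the Prox1-labelled clones, against 445 and 486 in the pcDNA clones (log2 change 0.23 ± 0.22). The groups overlapped on both, and the sign of the brighter one turned without Prox1-labelled clone 1 (-0.22) and also without pcDNA clone 1.

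**Figure D2:**
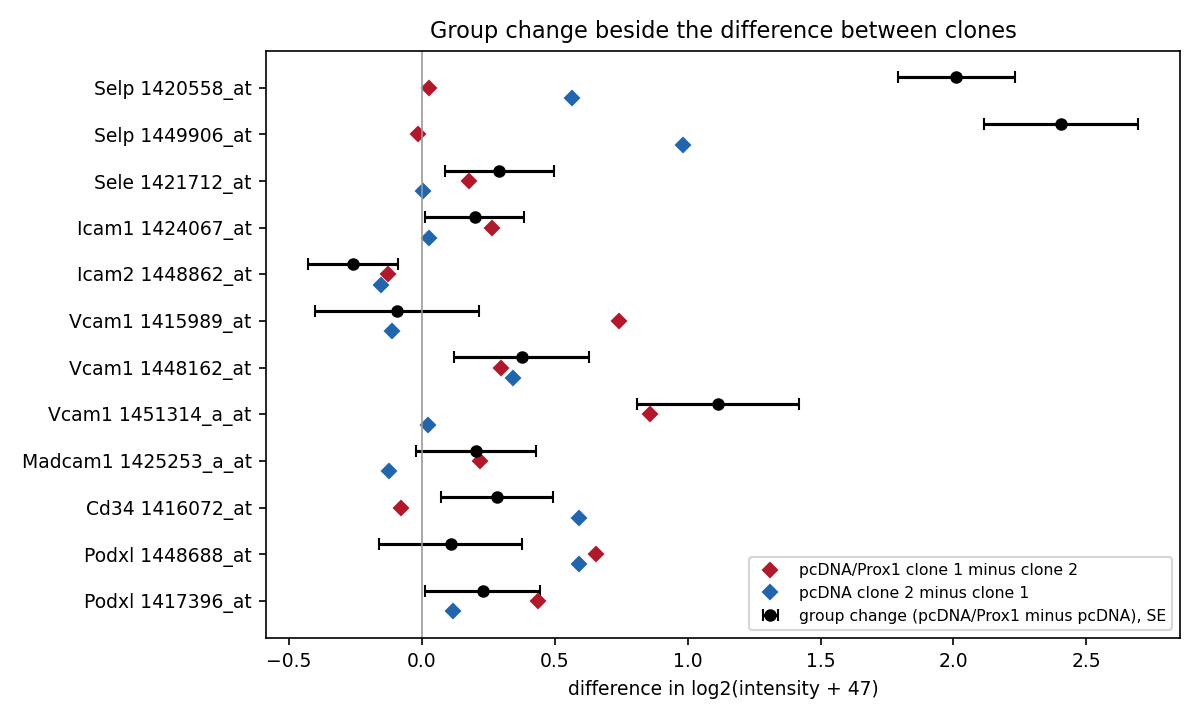
Differences in log2(intensity + 47) for the 12 probe sets. Black points give the group change, pcDNA/Prox1 minus pcDNA, with the SE of the fit, red diamonds the difference between the Prox1-labelled clones and blue diamonds that between the pcDNA clones. Both Selp changes, 2.01 and 2.40, lie well to the right of either clone difference, whereas for Podxl 1448688_at the clone differences of 0.66 and 0.59 exceed the group change of 0.11.

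Over the 12 probe sets, both Prox1-labelled clones lay above both pcDNA clones on 7 and below them on 1, and the groups overlapped on 4. Of all 22626 probe sets, 20.9% were higher and 20.2% lower in this sense. The median log2 change of the 12 was 0.26, against 0.003 for all probe sets. The intensity filter, which asked for a signal over the array's median on at least 2 arrays, passed 8 of the 12, from 6 genes. Limma called 2 of those 8, both of Selp, at an adjusted p under 0.05, where 0.103% of the 11656 probe sets tested were called. Selp had been singled out on this same contrast, so that nothing is read from these counts.

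The genes whose pattern over the 4 arrays was most like that of Selp were found by the root mean square difference of log2 values, each centred on its own mean, from Selp 1420558_at. Over 6955 other genes past the filter the closest was Gem, a small GTPase gene, at 0.14. It read 661 and 825 in the Prox1-labelled clones, against 132 and 221 in the pcDNA clones. Next came Tgfb3, a TGF-beta ligand, at 0.15, with 189 and 207 in the Prox1-labelled clones against 13.0 and 20.3 in the pcDNA clones. Like Selp, both were lowest in pcDNA clone 1, which their choice by likeness favours. The pcDNA readings of Tgfb3 lay below the brightest Bacillus control of their arrays. Tgfb3 passed the filter only through the Prox1-labelled clones, where it was high.

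The cytochrome P450 gene Cyp1b1 followed at 0.16, with 2749.6 and 2401 in the Prox1-labelled clones against 580.2 and 962 in the pcDNA clones, and a change of 1.29 on its other probe set past the filter, 1416613_at. The isocitrate dehydrogenase gene Idh1 came next at 0.21, with 813 and 799.8 in the Prox1-labelled clones against 197 and 215 in the pcDNA clones (log2 change 1.75). The other probe set of Idh1, 1419821_s_at, was below the filter and had a smaller change of 0.40. It read 172 and 257 in the Prox1-labelled clones, against 155 and 142 in the pcDNA clones. The basement membrane proteoglycan gene Hspg2 was the last of the 5 at 0.30, with 620 and 541 in the Prox1-labelled clones against 121 and 259 in the pcDNA clones on 1418670_s_at. Its other probe set, 1418669_at, was flat, with 1310 and 1232 in the Prox1-labelled clones against 1323 and 1243 in the pcDNA clones, so that the pattern of Hspg2 rests on 1 probe set. The other probe set of Selp itself lay at 0.25, farther than those of the first 4 genes.

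**Figure D3:**
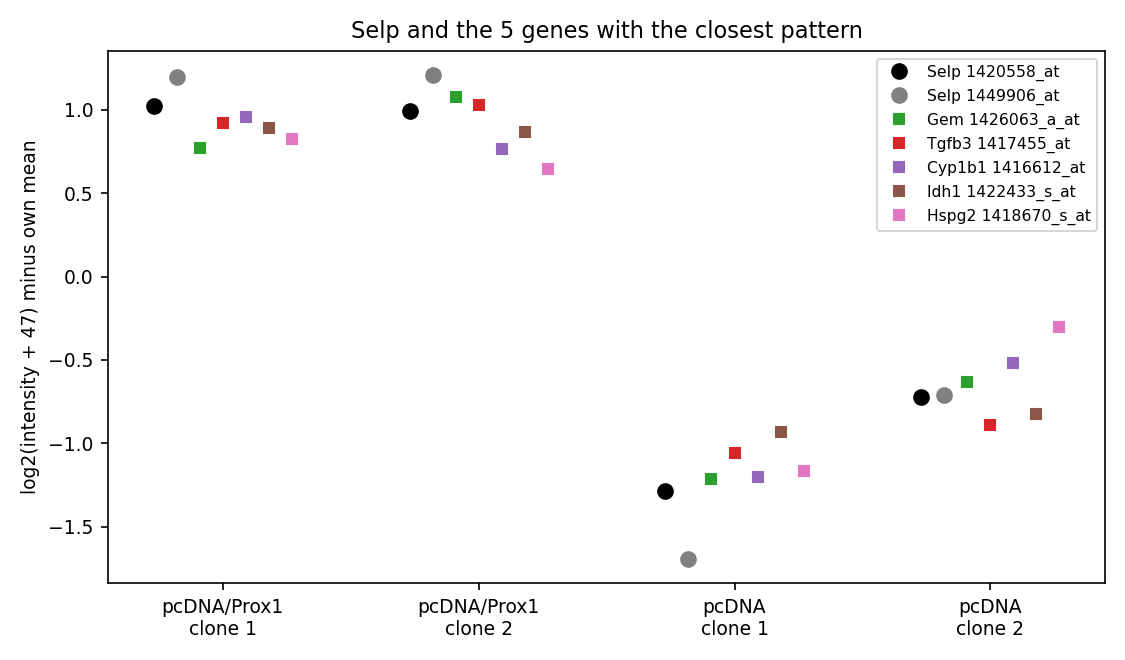
Log2(intensity + 47) minus each probe set's own mean over the 4 arrays, for Selp (circles, both probe sets) and the 5 genes closest to 1420558_at (squares), by clone. All 7 probe sets lie above 0 in the Prox1-labelled clones and below 0 in the pcDNA clones, with pcDNA clone 1 the lower of those. The 5 genes were chosen for this likeness on the same arrays, so that their shared pattern is no separate result.

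The other parts of the leukocyte adhesion cascade were read from 7 lists, which held 128 genes, 76 of them past the filter at their brightest probe set. None of the 76 was called by limma after adjustment over all probe sets tested, where 0.103% of all of those were called. At an unadjusted p under 0.05 there were 14 of the 76, against 999 of all 6956 genes past the filter. The median log2 change of the 76 was 0.15, with 45 positive, against 0.01 and 3539 positive for the 6956. Without pcDNA clone 2 there were 6 calls among the 76, in a fit that called 9.87% of all probe sets tested, and they were St3gal3, Igfbp7, Plat, Clec14a and Cdh5 higher and Ptgs2 lower.

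Selectins need ligands with the right sugars. Of 17 genes of selectin ligands and their glycosylation, 8 passed the filter, 5 with a positive and 3 with a negative change (median 0.13), and 0 were called. St3gal3, a sialyltransferase, read 372 and 368 in the Prox1-labelled clones, against 156 and 163 in the pcDNA clones (log2 change 1.01 ± 0.20, limma adjusted p = 0.128). The groups were well apart, but St3gal3 passed the intensity filter only through the Prox1-labelled clones, where it was high. Nothing is therefore read from that gap. Without the filter its limma adjusted p was 0.367, and without pcDNA clone 2 its change was 1.04. The galactosyltransferase gene B4galt1 read 2105 and 1799 in the Prox1-labelled clones, against 1306 and 1368 in the pcDNA clones (0.53 ± 0.18, limma adjusted p = 0.254). Selplg, the gene of the main P-selectin ligand PSGL-1 of leukocytes, was below the filter and above the Bacillus controls on 1 array only.

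The integrins that bind these receptors belong to leukocytes, and 1 of 9 listed genes passed the filter. This was Itgb1, the widely expressed beta-1 subunit, with 5049 and 4478 in the Prox1-labelled clones against 4197 and 4392 in the pcDNA clones (0.15 ± 0.17, limma adjusted p = 0.755). Its other probe sets past the filter had changes of -0.04 and 0.18. Below the filter, Spn, the gene of the leukocyte sialomucin CD43, exceeded the highest Bacillus control on 4 arrays, the integrin subunit gene Itgax on 3, Itgal on 1, and Itga4, Itgam, Itgb2 and Itgb7 on 0. Spn read 157 and 176 in the Prox1-labelled clones, against 144 and 112 in the pcDNA clones. These genes were named after their values were seen.

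P-selectin is kept in Weibel-Palade bodies, and 16 of 24 genes of this granule and its release passed the filter. Of these 11 had a positive and 5 a negative change (median 0.28), and 0 were called. Igfbp7, a secreted binding protein found in the granule in human cells, read 806 and 938 in the Prox1-labelled clones, against 451 and 427 in the pcDNA clones (0.92 ± 0.19, limma adjusted p = 0.128). Ap1g1, a subunit of the adaptor complex AP-1 that takes part in forming the granule, read 426 and 448 in the Prox1-labelled clones, against 283 and 243 in the pcDNA clones (0.65 ± 0.20, limma adjusted p = 0.212), with a change of 0.56 on its other probe set past the filter. Vwf, the gene of von Willebrand factor, whose polymers give the granule its shape, read 57.2 and 74.7 in the Prox1-labelled clones, against 2.32 and 2.29 in the pcDNA clones. All 4 readings of Vwf lay below the highest Bacillus control of their array, so that no difference is drawn from them, and the gene was named after its values were seen.

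Of 16 genes of transendothelial migration, the step after adhesion, 13 passed the filter, 8 with a positive and 5 with a negative change (median 0.17), and 0 were called. Jam2, a junctional adhesion molecule, read 108 and 137 in the Prox1-labelled clones, against 276 and 269 in the pcDNA clones (-0.92 ± 0.22, limma adjusted p = 0.154). Its other probe set past the filter, 1419288_at, had a change of -0.54. On both probe sets Jam2 passed the filter only through the pcDNA clones, where it was higher. Cd47, a surface glycoprotein that binds signal regulatory proteins, read 2539.8 and 2880.0 in the Prox1-labelled clones, against 3977 and 3536 in the pcDNA clones (-0.46 ± 0.18, limma adjusted p = 0.288), and its other probe sets past the filter had changes of -0.26 and -0.19. On the probe sets whose values are given, both genes were lower in both Prox1-labelled clones without passing the threshold.

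The sialomucins Cd34 and Podxl are joined to the cytoskeleton and accompanied by others, and 9 of 10 such genes passed the filter, 6 with a positive and 3 with a negative change (median 0.20), with 0 called. Ezr, the gene of the membrane linker ezrin, read 616 and 687 in the Prox1-labelled clones, against 829 and 1139.7 in the pcDNA clones (-0.55 ± 0.21, limma adjusted p = 0.290). On its other probe set, 1450850_at, the groups overlapped and the change was -0.19. Emcn, the gene of the endothelial sialomucin endomucin, read 8167 and 6484 in the Prox1-labelled clones, against 5256 and 6207 in the pcDNA clones (0.35 ± 0.19, limma adjusted p = 0.430).

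Genes of cytokine receptors and NF-kappaB control, through which cytokines act on several of the receptors, had no common direction. Of 30 listed, 21 passed the filter, 10 with a positive and 11 with a negative change (median -0.01), and 0 were called. Il6st, the shared receptor subunit gp130, read 489 and 386 in the Prox1-labelled clones, against 691 and 744 in the pcDNA clones (-0.67 ± 0.20, limma adjusted p = 0.207), and its other probe sets past the filter had changes of -0.50 and -0.43. Ikbkg, the regulatory subunit of the IkappaB kinase, read 889 and 842 in the Prox1-labelled clones, against 654 and 521 in the pcDNA clones (0.53 ± 0.20, limma adjusted p = 0.277), and its other probe sets past the filter had changes of 0.13, 0.28 and 0.67.

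Cytokine-induced genes of activated endothelium were split as well, with 8 of 22 past the filter, 4 positive and 4 negative (median 0.03), and 0 called. The chemokine gene Cxcl10 read 279 and 319.9 in the Prox1-labelled clones, against 188 and 127 in the pcDNA clones (0.78 ± 0.23, limma adjusted p = 0.206). The chemokine gene Ccl5 read 685 and 492 in the Prox1-labelled clones, against 367 and 412 in the pcDNA clones (0.53 ± 0.22, limma adjusted p = 0.315). Il6, named after its values were seen, read 800.4 and 1205 in the Prox1-labelled clones, against 1829.6 and 1017 in the pcDNA clones, with overlapping groups.

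**Figure D4:**
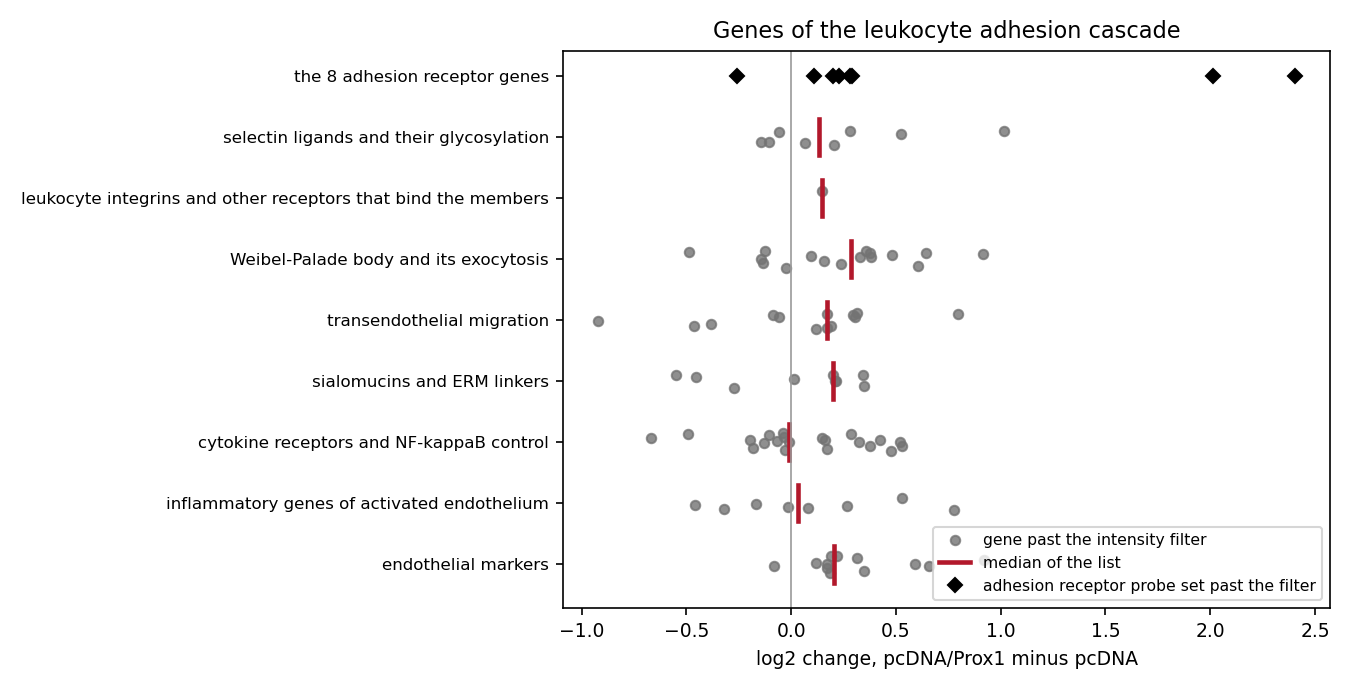
Log2 change, pcDNA/Prox1 minus pcDNA, of each gene past the intensity filter in the 7 lists of the adhesion cascade and in the endothelial markers (grey points, red bars for the medians), with the adhesion receptor probe sets past the filter in black on top. The listed genes lie between -0.92 and 1.01, and both Selp probe sets lie above 2.

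Markers of the cells themselves were read beside these results. The median intensity of each array, from 163 in pcDNA clone 1 to 180 in Prox1-labelled clone 1, exceeded that array's highest Bacillus control. To exceed that control is therefore common among all probe sets. Of 13 endothelial markers, 12 exceeded the highest Bacillus control on all 4 arrays, among them Pecam1, with 6242 and 5826 in the Prox1-labelled clones against 5679 and 5418 in the pcDNA clones, and Cdh5, with 3340.4 and 3332 in the Prox1-labelled clones against 2133 and 4091 in the pcDNA clones. The Ets factor gene Erg was the exception. Of the 12 endothelial markers past the filter, 11 had a positive and 1 a negative change (median 0.21), and 0 were called. Tek, the angiopoietin receptor gene, had the highest change of these, with 1005 and 857 in the Prox1-labelled clones against 377 and 579 in the pcDNA clones (0.92 ± 0.23, limma adjusted p = 0.166). Next were the Ets factor gene Fli1 at 0.66 ± 0.22 and the receptor gene Tie1 at 0.59 ± 0.29, whereas Pecam1 and Cdh5 had changes of 0.12 and 0.17. Tek, Fli1 and Tie1 were named after their values were seen. The summed endothelial signal was 54659 and 52329 in Prox1-labelled clones 1 and 2, against 40141 and 52042 in pcDNA clones 1 and 2. It was lowest in pcDNA clone 1, whose array also had the lowest median intensity. Selp, Icam1, Cd34 and Podxl were lowest in that clone too on all their probe sets. So were Vcam1 on 1448162_at and 1451314_a_at and, by a margin of 220.7 against 221.4 in pcDNA clone 2, Sele. Icam2, Madcam1 and Vcam1 on 1415989_at were not. The part of the lower endothelial signal in those values was not tested.

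Platelets also carry P-selectin. The summed signal of 7 platelet and megakaryocyte markers was 1251 and 1062 in the Prox1-labelled clones, against 1328 and 1306 in the pcDNA clones, with 5 of the 7 above the Bacillus controls on all arrays, among them Itga2b (312 and 284 in Prox1-labelled clones, 317 and 384 in pcDNA clones). Of the 4 platelet markers past the filter, 2 had a positive and 2 a negative change (median -0.05), and 0 were called. Pf4 had the lowest change, with 180 and 197 in the Prox1-labelled clones against 421 and 316 in the pcDNA clones (-0.81 ± 0.22, limma adjusted p = 0.175). It was named after its values were seen. The part of platelet transcripts in the Selp values was not tested. Of 10 leukocyte markers, 3 were above those controls on all arrays, including Cd68 (708 and 806 in Prox1-labelled clones, 847 and 969.6 in pcDNA clones) and Csf1r (375 and 335 in Prox1-labelled clones, 239.7 and 443 in pcDNA clones), and 4 on none, including Ptprc, which marks all leukocytes. Their summed signal was 1597 and 1663 in the Prox1-labelled clones, against 1481 and 2004 in the pcDNA clones. Of the fibroblast and smooth muscle markers 2 of 11, and of the epithelial markers 2 of 6, exceeded the controls on all arrays. As the median intensity of each array exceeded its highest control too, these counts alone do not show that a cell type was present.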

How the data were processed

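Deposited values were probe set intensities on a linear scale, made by the authors with MAS5 per the submitters' processing notes, with no version given in the sources used here. Each of the 4 arrays had a mean of 500 after trimming 2% at either end, and no further normalization was applied. Precision is limited by the number of arrays. With 2 clones a group, exact permutation of the labels of a single value gives no p under 0.333.

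Probe sets were named from the platform annotation where it gave 1 gene (20380 of 22626; 691 had several and 1555 none), and 20351 of these matched RefSeq by Entrez identifier. Values were analysed as log2(intensity + 47). Limma 3.58.1 in R 4.3.3 (lmFit, eBayes with an intensity trend, 2-sided) was fitted to 11656 probe sets, 64 Affymetrix controls left out, with Benjamini-Hochberg adjustment over all of them. Probe sets below the filter were read from the same fit without it. The procedure was also run on simulated data, from which nothing is drawn here. Alternatives were other scalings between arrays, other added constants, filters and variance models, the clone number as a block and leaving out each clone.

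The members and lists were chosen with earlier results of these data known. All 8 genes were named with all their probe sets, then the 5 genes most like Selp, and from each list the called genes, or the 2 of smallest unadjusted p where there was none. A gene in a list is represented by its probe set with the highest mean. Pecam1, Cdh5 and the 3 brightest markers of other cells were also named.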

Additional observations from a re-analysis of the deposited data

How the results depend on the processing

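Without any clone being dropped, the 12 calls over all probe sets became 4 under quantile normalization, 7 with the robust variance model, and 0 without the intensity filter, where 22626 probe sets shared the adjustment and 2300 had an unadjusted p under 0.05. Of the 2 Selp probe sets called, 1 remained under quantile normalization, 1 with the robust variance model and 0 without the filter. Selp had been singled out on this same contrast, so that nothing is read from its calls under any setting. Leaving out a clone gave from 42 (without Prox1-labelled clone 1) to 1150 calls (without pcDNA clone 2), in fits with 1 array in a group. The clone number as a replicate block gave 110 calls. Deviations of same-numbered clones did not go together (r = -0.01 over 11656 probe sets), and the labels tie the numbers to no shared culture or day. Calls among the genes of the 7 lists ranged from 0 to 6 when a clone was dropped and were 0 under the other alternatives. The causes of these differences were not tested.

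Over 150 refits of the 12 adhesion receptor probe sets, the Selp changes ran from 1.73 to 2.29 for 1420558_at and from 1.91 to 2.89 for 1449906_at. Refits that altered only the filter, the variance model or the block cannot alter a group change in this balanced design. They are part of the 150 and say nothing of its stability. The sign turned in 4 refits, each without 1 clone, for Vcam1 1415989_at, Cd34 and Podxl 1448688_at. Of the 5 genes most like Selp, 4 remained under quantile normalization, and 3 remained with no added constant (Gem, Cyp1b1 and Idh1), with the larger constant (the same 3), or when the other Selp probe set was the standard (Gem, Tgfb3 and Cyp1b1). Signal over background limits Vcam1 and Madcam1.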
